A study of Bos taurus with 46 samples.

Results

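The libraries described here are the D55 blood leukocyte libraries of heifers pregnant by artificial insemination (AI, 8 heifers) and of heifers that carried large offspring syndrome fetuses from in vitro produced embryos (IVP-LOS, 9 heifers). They were taken by the GEO labels for day and pregnancy group, which gave 17 of the 46 libraries of the series, 1 per heifer, and the question was which genes and gene functions of the mother's white blood cells (WBC) differed between both kinds of pregnancy in the first trimester. All were Angus crossbred heifers of breeding age whose oestrus had been synchronised. AI heifers were inseminated, and IVP heifers received a pair of in vitro produced blastocysts, made from B. t. taurus oocytes and the semen of 1 Brahman (B. t. indicus) bull. A fetus was classed as LOS by its body weight at collection on D105, so the group of a D55 library was assigned from a later measurement. AI heifers carried 1 fetus each, whereas IVP-LOS heifers 557 and 604 carried 2. In vitro production, embryo transfer, the number of fetuses and fetal overgrowth all separated these groups, and their parts in any difference cannot be told apart here. Side by side values were taken from the other libraries of the series, namely 6 heifers with IVP fetuses of normal weight (IVP-Normal) and the D105 libraries of the same animals.

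Large offspring syndrome is a fetal overgrowth disorder of cattle and sheep that can follow assisted reproduction. According to the paper it also arises spontaneously in cattle after natural mating or AI. It involves loss of imprinting in fetal and placental tissues. Maternal leukocytes meet signals from the conceptus through the blood: interferon tau from the early ruminant trophoblast induces interferon-stimulated genes in them, and the placenta later releases pregnancy-associated glycoproteins and hormones. Buffy coat preparations also carry platelets, whose RNA comes from megakaryocytes.

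The D55 libraries held 21791213 to 23841695 reads on NCBI genes in AI heifers and 21823930 to 24502012 in IVP-LOS heifers. Leukocyte markers were high in both groups: the median level of MS4A1, the B cell antigen CD20, was 1032 CPM (read counts scaled to library size) in AI and 1089.7 CPM in IVP-LOS heifers, and that of CD3E, a T cell receptor subunit, was 485 and 455 CPM. Placental transcripts were close to absent. Of 31 trophoblast genes in the table, 27 had no read in any of the 17 libraries, and their summed level ran from 0.716 to 1.98 CPM. PAG1 is left out of that sum because its symbol also names a leukocyte membrane adaptor and its median was 447 CPM in AI heifers. The share of all reads that lay on no NCBI gene was 22.9% ± 1.43 (SD, n = 8) in AI and 22.3% ± 1.82 (SD, n = 9) in IVP-LOS heifers. The difference of these means, IVP-LOS minus AI, was -0.591 percentage points (two-sided exact permutation test over 24310 divisions of the heifers, p = 0.465).

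One AI library held genes that the other library of its heifer lacked. Across the series, 20 genes were either on or off in a heifer, with a range above 6.5 on the log2 scale and few values between the extremes. In 21 of 23 heifers all 20 genes had the same state on D55 and D105, and in IVP-LOS heifer 664 19 did. A wider rule (range above 5) took 36 genes, and under it more heifers differed between the days. AI heifer 517 did so at 9 genes, IVP-LOS heifer 637 at 4, and IVP-Normal heifer 688 and IVP-LOS heifer 664 at 3 each. Under the first rule the library labelled AI heifer 517, D55, differed from the D105 library of that heifer at 6 genes, all on at D55 and off at D105. The other 14 were in the same state. The D105 library of IVP-Normal heifer 519 shared the state of this D55 library at 19 of the 20 genes. Such matches also occurred elsewhere: AI heifer 533 on D55 matched IVP-Normal heifer 669 on D105 at 20. Over all tested genes the deviations of the D55 library of heifer 517 from the group mean correlated best with its own D105 library among the AI and IVP-LOS heifers. IVP-Normal heifers, and so heifer 519, were not part of that comparison. In that comparison 16 of 17 D55 libraries were closest to their own heifer, and the exception was IVP-LOS heifer 656, which was closest to heifer 664. At the on and off genes heifer 656 had the same state on both days at all 20. BOLA-DQB, an MHC class II chain, was at 114.6 CPM in heifer 517 on D55 and at 0 CPM on D105. RBM44, an RNA-binding protein gene, was at 6.75 CPM and 0.133 CPM. The same genes were on in IVP-Normal heifer 519, where BOLA-DQB was at 377 CPM and RBM44 at 20.9 CPM on D55.

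The D55 library of heifer 517 thus held intermediate levels of genes that were on in heifer 519. For the 22 genes above 3 CPM in both libraries of heifer 519 and under 10% of that in heifer 517 on D105, the D55 library of heifer 517 held a median of 35.2% of the lower level of heifer 519, with a range of 25.9% to 49.2%. Genes with the opposite pattern were 25 genes above 3 CPM in heifer 517 on D105 and under 10% of that in heifer 519. They were at a median of 77.3% of their D105 level, with a wide range of 26.4% to 162.1%. Every one of the 22 genes exceeded 10% of the level of heifer 519, which was true of no other pair among the 979 ordered pairs of a library and another heifer compared in this way (next highest share of genes, 92.3%, again heifer 517 on D55). How the library came to hold these transcripts was not tested. The results that follow are given with this library and, where it mattered, without it.

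**Figure D1:**
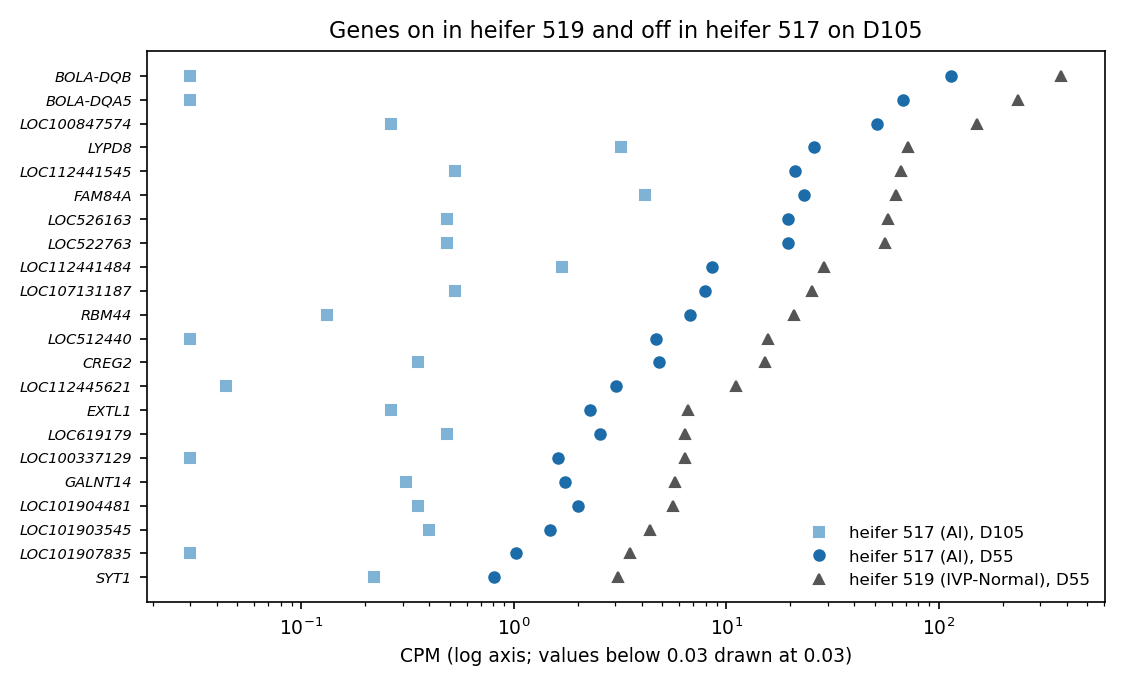
The 22 genes that were on in IVP-Normal heifer 519 and off in AI heifer 517 on D105, with CPM on a log axis and 1 row per gene. In every row the D55 level of heifer 517 (dark circles) lies between its own D105 level (light squares) and the D55 level of heifer 519 (triangles), at a near constant distance from the latter (median 35.2% of the lower level of heifer 519).

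Of 15236 genes tested on D55, none was called different between AI and IVP-LOS heifers by edgeR's quasi-likelihood test at a false discovery rate (FDR) of 0.05 or less (0%). An unadjusted p under 0.05 was reached by 579 genes with higher levels in IVP-LOS heifers (3.8% of those tested) and by 600 with lower levels (3.94%). The count depended on the tool and settings. With 2 factors of unwanted variation estimated from the residuals, a step related to one the authors used, the quasi-likelihood test called 162 genes (1.06%; 50 higher), and with 1 such factor it called none. The members of that set are not described here. Without factors, edgeR's likelihood ratio test called 1 gene (0.00656%; 958 at an unadjusted p under 0.05), and DESeq2 called 2 of 24098 (0.0083%; 1470 at an unadjusted p under 0.05). Differences were small for most genes, the median of the absolute log2 fold changes being 0.098 and that of their standard errors 0.121. For 91.1% of genes the 95% interval of the difference lay within a log2 fold change of 1 in either direction, and for the 9677 genes with a mean of at least 10 CPM in 1 of the groups 97.9% did. A 2-fold difference in either direction was thus outside the interval for nearly all well-measured genes.

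The libraries did not separate by group. Mean distance on log2(CPM + 1) values was 54.0 between pairs of AI heifers, 57.4 between pairs of IVP-LOS heifers and 55.8 between heifers of different groups. The nearest library belonged to the same group for 5 of 8 AI and 4 of 9 IVP-LOS heifers. The number of genes at an unadjusted p under 0.05 depended on single heifers. It was 1486 without AI heifer 517, the library described above, and 693 without AI heifer 606. It was 845 without IVP-LOS heifers 557 and 604, which carried 2 fetuses. In none of these cases was a gene called by edgeR's quasi-likelihood test. Without heifer 517 DESeq2 called 5 genes in place of 2.

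The gene with the smallest p was LOC100849069, an uncharacterised protein-coding gene by RefSeq (ARS-UCD2.0), where it lies next to the lncRNA gene LOC107131785 and to NDUFV2, a complex I subunit. In AI heifers it was at 0.463, 1.41 and 3.76 CPM (lowest, median, highest), which were 11 to 88 reads per library. In IVP-LOS heifers it was at 0, 0.0437 and 0.269 CPM, which were 0 to 6 reads. Every AI heifer was above every IVP-LOS heifer. The log2 fold change, IVP-LOS minus AI, was -4.05 ± 0.62 (SE; 95% interval -5.34 to -2.75), with an FDR of 0.0541 by edgeR's quasi-likelihood test, 2.51e-06 by its likelihood ratio test and an adjusted p of 4.95e-06 by DESeq2. Leaving out each heifer in turn moved the log2 fold change between -4.39 and -3.76 and the quasi-likelihood FDR between 0.033 and 0.184. It passed the threshold without AI heifer 590 (0.033) or without AI heifer 648 (0.0415), the AI heifers with the fewest reads, and was 0.0535 without heifer 517.

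Levels of LOC100849069 in single heifers differed between the days to varying degrees, with AI heifer 606 at 3.76 CPM on D55 and 1.34 CPM on D105 and heifer 648 at 0.557 and 0.537 CPM. In the D105 libraries AI heifers were at 0.265, 0.938 and 2.67 CPM and IVP-LOS heifers at 0, 0.0438 and 0.345 CPM. The groups overlapped there, since AI heifer 590 was below IVP-LOS heifers 637 and 663. Too few D105 reads were present for the gene to pass the expression filter of that comparison. IVP-Normal heifers reached into the D55 ranges of both groups, at 0.0459, 0.31 and 1.85 CPM on D55, with 1 read in heifer 669 and 43 reads in heifer 519. NDUFV2, its neighbour, averaged 61.4 CPM in AI heifers (SD 6.01) and 59.4 CPM in IVP-LOS heifers (SD 5.26).

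**Figure D2:**
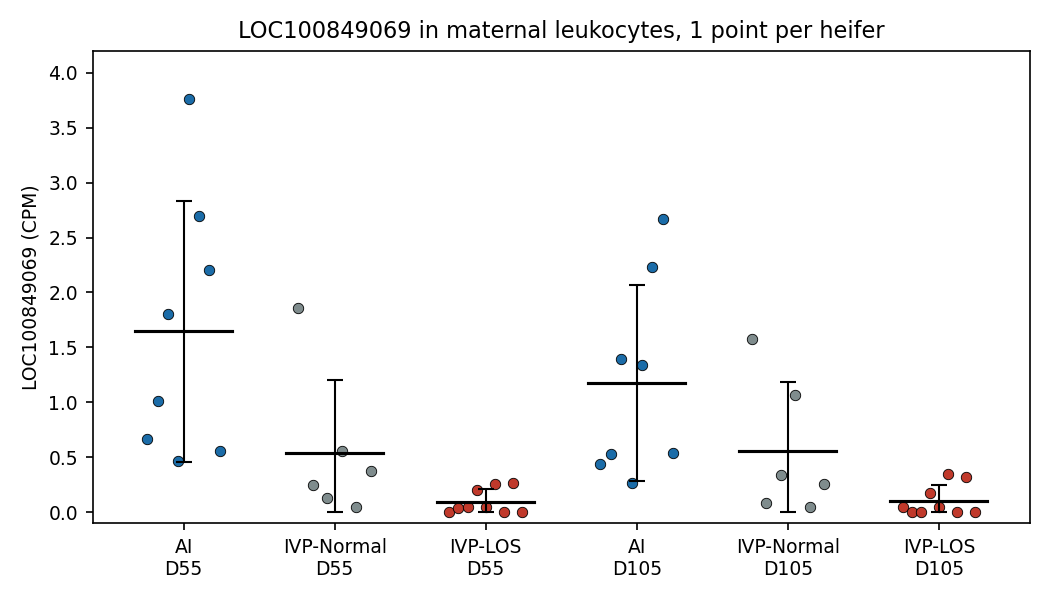
LOC100849069 in CPM, 1 point per heifer, by group and day, with the mean (line) and SD (bar, drawn down to 0 at most). On D55 the lowest AI heifer is at 0.463 CPM and the highest IVP-LOS heifer at 0.269 CPM, and the IVP-Normal heifers reach from 0.0459 to 1.85 CPM.

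The second gene called by DESeq2, LOC112441545, is named here after its values were seen. It was on in AI heifers 647 (105 CPM), 546 (50.1 CPM) and 517 (21.0 CPM) and between 0.21 and 0.367 CPM in the other 5 AI heifers. IVP-LOS heifers were between 0.267 and 0.617 CPM. The groups overlapped, the adjusted p by DESeq2 was 0.0198, and the gene did not pass edgeR's filter. On D105 it was still on in heifers 647 (109.5 CPM) and 546 (47.4 CPM) but was at 0.53 CPM in heifer 517. IVP-Normal heifer 519 was at 66.4 CPM on D55. Without heifer 517 the adjusted p by DESeq2 was 0.0212.

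Only 4 genes had groups that did not overlap on D55. Besides LOC100849069, HOXB3 and RNF8 were lower in every IVP-LOS heifer (3 genes, 0.0197% of those tested) and OVCA2 was higher in every one (1 gene, 0.00656%). HOXB3, a homeobox transcription factor of haematopoietic progenitors, was at 1.12, 1.49 and 1.89 CPM in AI and at 0.507, 0.899 and 1.07 CPM in IVP-LOS heifers. Its log2 fold change was -0.74 ± 0.16 (SE). RNF8, a ubiquitin ligase of the DNA damage response, was at 32.5, 34.6 and 41.5 CPM in AI and at 28.6, 30.7 and 32.3 CPM in IVP-LOS heifers, which is a narrow gap (log2 fold change -0.20 ± 0.05, SE). OVCA2, which encodes a serine hydrolase, was at 0.47, 0.604 and 0.674 CPM in AI and at 0.687, 0.796 and 0.94 CPM in IVP-LOS heifers. None of these separations was present on D105, when the log2 fold changes were -0.10 ± 0.22 for HOXB3, -0.04 ± 0.08 for RNF8 and 0.06 ± 0.21 for OVCA2. IVP-Normal heifers on D55 were at 1.08 ± 0.345 CPM (SD, n = 6) for HOXB3, 33.4 ± 3.72 CPM for RNF8 and 0.792 ± 0.228 CPM for OVCA2. They reached into both groups for each gene.

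Among the genes with the smallest unadjusted p and higher levels in IVP-LOS heifers, the largest differences were those of ERBB3 and PDE5A. ERBB3, a neuregulin receptor of the EGF receptor family, was at 0.643, 0.943 and 1.48 CPM in AI and at 0.977, 1.56 and 2.84 CPM in IVP-LOS heifers. Its log2 fold change was 0.84 ± 0.20 (SE). The FDR by edgeR's quasi-likelihood test was 0.636, and the adjusted p by DESeq2 without heifer 517, the AI heifer with the highest level, was 0.0437. PDE5A, a cyclic GMP phosphodiesterase found in smooth muscle and platelets, was at 1.05, 1.57 and 2.58 CPM in AI and at 1.78, 2.81 and 3.86 CPM in IVP-LOS heifers (log2 fold change 0.74 ± 0.18, SE). The groups overlapped for both genes. IVP-Normal heifers averaged 1.67 ± 0.412 CPM (SD) for ERBB3 and 1.79 ± 0.603 CPM for PDE5A.

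The other 6 genes of that set differed by less, with log2 fold changes between 0.17 and 0.31, and all had an FDR of 0.636. The 8 AI heifers averaged 57.1 ± 3.31 CPM (SD) and the 9 IVP-LOS heifers 66.2 ± 5.11 CPM for LRPPRC, which stabilises mitochondrial mRNAs. PRDX3, the mitochondrial peroxiredoxin, was at 76.2 ± 4.42 and 85.7 ± 4.09 CPM. MRPS22, a protein of the small mitochondrial ribosomal subunit, was at 24.7 ± 1.34 and 28.3 ± 1.64 CPM. These genes of mitochondrial gene expression and redox control came from a rule on p alone, and no list of mitochondrial ribosomal proteins was examined. GGPS1, which makes geranylgeranyl diphosphate for protein prenylation, had a log2 fold change of 0.25 ± 0.06 (SE). MTRR, which keeps methionine synthase active, had 0.23 ± 0.06, and ERI2, an exonuclease family gene, had 0.31 ± 0.08.

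Lower levels in IVP-LOS heifers were led, after HOXB3, by genes of several unrelated roles. PCOLCE, an enhancer of procollagen processing, was at 34.8, 42.2 and 55.1 CPM in AI and at 28.0, 34.3 and 36.5 CPM in IVP-LOS heifers, so that the groups overlapped only at the lowest AI library, which was that of heifer 517. Its log2 fold change was -0.39 ± 0.09 (SE) with that library and -0.44 without it, and the adjusted p by DESeq2 without it was 0.0103. COL27A1, a fibrillar collagen gene, was at 0.979, 2.14 and 3.69 CPM in AI and at 0.203, 0.655 and 1.91 CPM in IVP-LOS heifers. Its difference was the largest of this set, with a log2 fold change of -1.46 ± 0.37 (SE), and it was -0.75 ± 0.31 on D105. IL17D, a cytokine of the interleukin-17 family, averaged 6.40 ± 1.1 CPM (SD) over AI heifers and 3.91 ± 1.25 CPM over IVP-LOS heifers. NRADD, a death domain membrane protein gene, was at 137 ± 24.0 and 103.3 ± 12.6 CPM. Their log2 fold changes were -0.71 ± 0.18 for IL17D and -0.40 ± 0.10 for NRADD (SE). IVP-Normal heifers averaged 0.579 ± 0.17 CPM (SD) for COL27A1, which was below the lowest AI heifer, and 4.44 ± 2.12 CPM for IL17D.

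DPM3, which anchors dolichol-phosphate-mannose synthase for glycosylation, had a log2 fold change of -0.35 ± 0.08 (SE). Each gene named from this set had an FDR of 0.636 by edgeR's quasi-likelihood test. LOC618463, which DESeq2 called without heifer 517 (adjusted p = 0.0437) and which was named after its values were seen, was at 1.18, 4.3 and 11.6 CPM in AI and at 0.524, 1.86 and 2.55 CPM in IVP-LOS heifers.

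**Figure D3:**
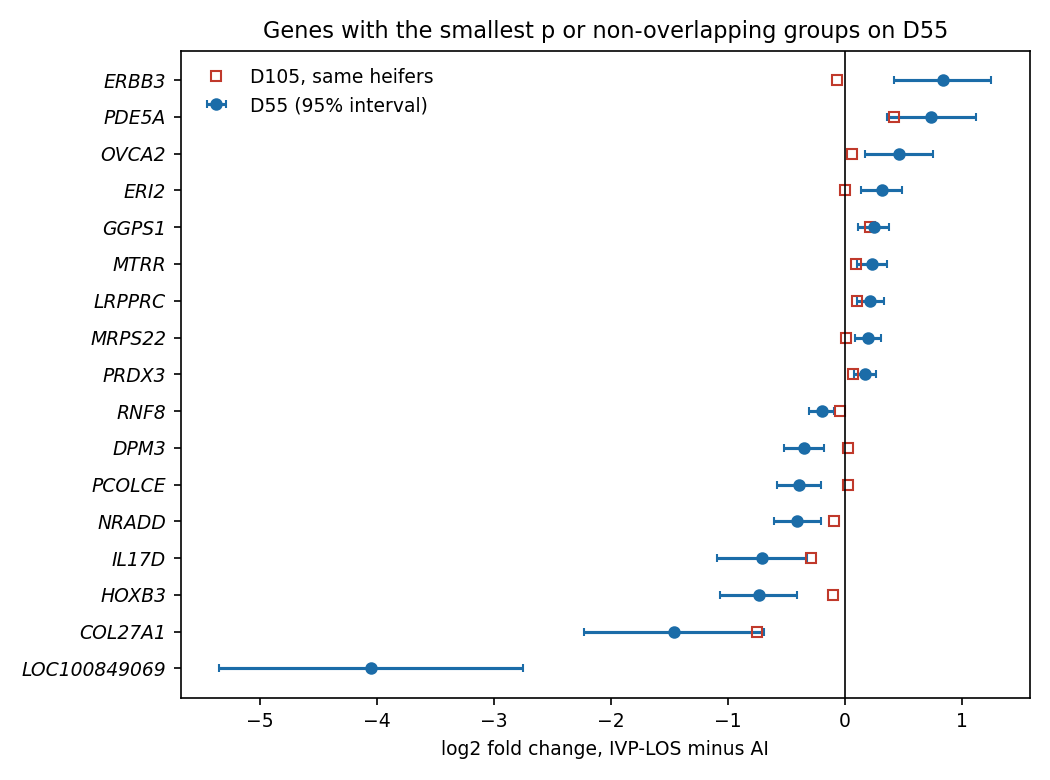
Log2 fold change, IVP-LOS minus AI, of named genes with the smallest p in each direction and of those whose groups did not overlap on D55. Circles with bars are D55 values with their 95% interval and open squares are the D105 values of the same heifers. LOC100849069 lies at -4.05 and has no D105 value, and the D105 values of ERBB3, DPM3 and PCOLCE (-0.07, 0.03 and 0.02) are on or across the zero line.

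Gene functions were described over 36 lists of markers, pathways and complexes. Platelet genes had the highest list median. Of 11 members tested, 10 had log2 fold changes of 0.44 or more, 4 reached an unadjusted p under 0.05 in the higher direction (beside 3.8% of all genes), and the median was 0.67 beside 0.009 over all genes. SELP, the P-selectin of platelet and endothelial granules, was at 1.84, 5.99 and 9.34 CPM in AI and at 5.87, 9.09 and 27.8 CPM in IVP-LOS heifers (log2 fold change 1.16 ± 0.34, SE). TREML1, a receptor of platelet alpha granules, was at 1.76, 2.55 and 4.95 CPM in AI and at 2.36, 4.32 and 15.9 CPM in IVP-LOS heifers. GP5, a subunit of the von Willebrand factor receptor complex, had a log2 fold change of 1.3 ± 0.53 (SE). The groups overlapped in all of these genes. The highest IVP-LOS levels were those of heifer 512 in each of them, and the lowest were those of heifer 664.

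Abundant platelet transcripts had closer medians. TUBB1, the platelet beta-tubulin, was at a median of 508 CPM in AI and 580 CPM in IVP-LOS heifers, and PF4, platelet factor 4, at 215 and 219 CPM. ITGA2B, the integrin alpha chain that defines the lineage, was at 71.0 and 62.6 CPM, and its log2 fold change was 0.00. The summed level of the list ran from 413.5 to 1364 CPM in AI, from 501.9 to 2611 CPM in IVP-LOS and from 421.5 to 2431 CPM in IVP-Normal heifers. For SELP the IVP-Normal heifers averaged 11.2 ± 7.08 CPM (SD). No platelet gene had an FDR under 0.636. Without IVP-LOS heifer 512 the number at an unadjusted p under 0.05 was 3, without AI heifer 517 it was 6, and without IVP-LOS heifer 664 it was 8. On D105 the list median was 1.25. IVP-LOS heifer 604 then had the highest level in its group of TUBB1 (3243 CPM), PF4 (2221 CPM) and TREML1 (24.5 CPM). The D105 medians of AI and IVP-LOS heifers were 376 and 451 CPM for TUBB1. For TREML1 they were 2.34 and 2.59 CPM, and for GP5 0.687 and 0.533 CPM. In bulk blood samples more platelets and more RNA per platelet cannot be told apart.

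**Figure D4:**
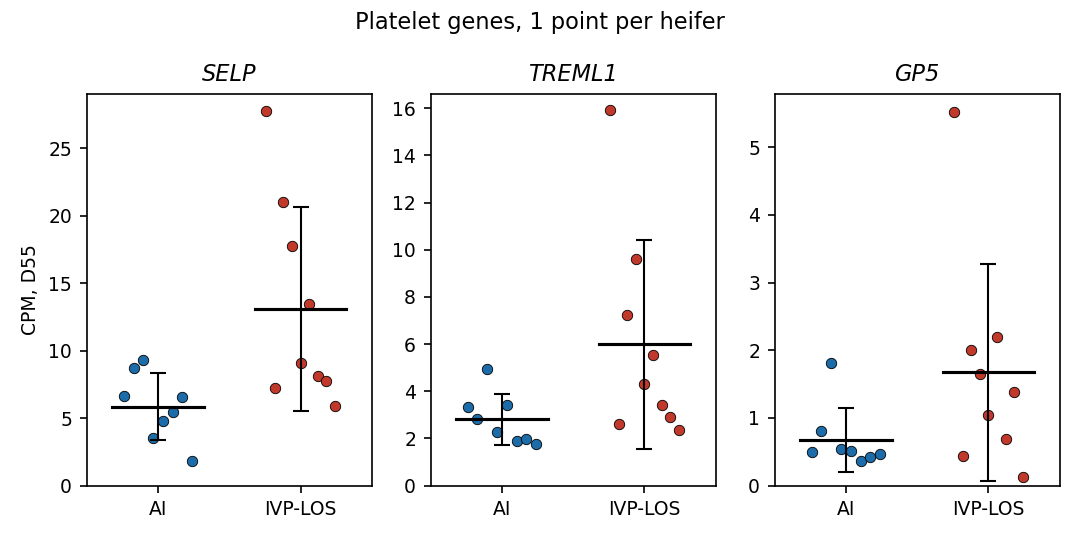
SELP, TREML1 and GP5, platelet genes with an unadjusted p under 0.05, in CPM on D55, 1 point per heifer, with the mean (line) and SD (bar). IVP-LOS heifers reach 27.8 CPM for SELP and 15.9 CPM for TREML1, and the lower IVP-LOS heifers lie within the range of the AI heifers.

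The makeup of the leukocytes was read from lists of marker genes. Over 14 B cell genes the summed level had a median of 5221 CPM in AI and 5019 CPM in IVP-LOS heifers, and none reached an unadjusted p under 0.05. No gene reached it either among 20 T cell genes (medians 3598 and 3521 CPM), 11 neutrophil genes tested and 14 monocyte genes tested. Summed over all 12 neutrophil genes counted the medians were 1349 and 1354 CPM, and over all 16 monocyte genes counted 2924 and 2291 CPM. Of the monocyte genes tested 13 had log2 fold changes below 0, with a median of -0.09. C1QB, a complement C1q chain, had the smallest p of them with -0.55 ± 0.45 (SE). In the T cell list LAT, the adaptor of T cell activation, had -0.21 ± 0.11 and CCR7, the lymph node homing receptor, had 0.31 ± 0.18. Single heifers were far apart within groups: IVP-LOS heifer 637 had the highest sums of both neutrophil (1979 CPM) and monocyte genes (7372 CPM). Of 18 cytotoxic and NK genes, IL2RB, the beta chain of the interleukin-2 receptor, was the one with an unadjusted p under 0.05 (log2 fold change 0.29 ± 0.13, SE). Over all genes 3.8% were higher at that p. No WC1, basophil, plasma cell or erythroid gene reached it. MZB1, a chaperone of immunoglobulin assembly in plasma cells, had -0.51 ± 0.31. The median log2 fold change of 7 erythroid genes was 0.25, with HBB, beta globin, at 0.41 ± 0.40.

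Of 6 eosinophil genes tested, 5 had log2 fold changes below 0 (median -0.16). At an unadjusted p under 0.05, 2 were lower and 1 higher (beside 3.94% and 3.8% of all genes). CEBPE, the transcription factor of late granulocyte maturation, had a log2 fold change of -0.96 ± 0.32 (SE), and ALOX15, the 15-lipoxygenase of eosinophils, had -1.38 ± 0.58. CCR3, the eotaxin receptor, had 0.54 ± 0.21, and without IVP-LOS heifer 512 it was not under that p. The summed level of the list had medians of 72.9 CPM in AI and 77.3 CPM in IVP-LOS heifers. Lipid mediator genes included ALOX15 and 3 others at an unadjusted p under 0.05, all lower, among 24 tested (beside 3.94% of all genes). ALOX5, the enzyme that opens leukotriene synthesis, was at 3.04 CPM on average in AI and 1.03 CPM in IVP-LOS heifers (log2 fold change -1.55 ± 0.52, SE). PTGS2, the inducible cyclooxygenase, had -0.79 ± 0.37, and HPGD, which degrades prostaglandins, had -1.21 ± 0.57. The median of the list was -0.04, and 14 of the 24 log2 fold changes were below 0. The number fell to 1 without AI heifer 609, and all 4 genes had a mean of at most 7.90 CPM in AI heifers.

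Interferon-stimulated genes, the classical leukocyte readout of early pregnancy in cattle, lay on both sides of 0 on D55. Of 53 members tested, 29 had log2 fold changes above 0, the median was 0.03, and the extremes were -0.31 and 0.29. PARP12, an antiviral ADP-ribosyltransferase, had -0.19 ± 0.08 (SE), and IRF7, the regulator of type I interferon induction, had -0.30 ± 0.14. They were the only members at an unadjusted p under 0.05 (beside 3.94% of all genes in that direction), and IFI6 followed with -0.28 ± 0.14. In the NF-kappaB list NFKBIA, the inhibitor IkB-alpha, averaged 152 ± 25.6 CPM (SD) over AI heifers and 123.6 ± 18.9 CPM over IVP-LOS heifers, and IKBKB, the kinase that marks it for decay, had a log2 fold change of -0.16 ± 0.07 (SE). The interleukin-1 and inflammasome list held 1 gene in each direction, with SIGIRR, an inhibitory receptor, at -0.27 ± 0.12 and NOD1, a sensor of bacterial peptidoglycan, at 0.38 ± 0.17. No cytokine, Toll-like receptor, neutrophil granule, glucocorticoid response or immediate early gene reached an unadjusted p under 0.05. The inflammatory cytokine TNF had -0.32 ± 0.19 (SE), and CXCL8, the neutrophil chemokine, had 0.57 ± 0.35.

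Antigen presentation was described over MHC class II and class I lists. RFX5, a transcription factor of MHC class II promoters, had a log2 fold change of 0.20 ± 0.09 (SE), the one of 16 class II members with an unadjusted p under 0.05. BOLA-DQA5, a class II alpha chain, ran from 0.0427 to 304 CPM in AI and from 0.0448 to 134 CPM in IVP-LOS heifers. Its log2 fold change of -2.15 ± 1.17 (SE) was accordingly imprecise, and it moved to -4.02 without IVP-LOS heifer 664. Reads of such near-identical MHC genes may be divided between copies by the counting, and AI heifer 517 was at 68.0 CPM on D55 and at 0 CPM on D105. None of 24 class I and peptide loading genes had an unadjusted p under 0.05. Of 28 regulatory and tolerance genes, TGFBR2, a TGF-beta receptor, had 0.18 ± 0.07 and BTLA, an inhibitory lymphocyte receptor, had -0.42 ± 0.19. GPER1, a membrane oestrogen receptor, had -0.45 ± 0.21 and was the one member of 19 hormone receptor genes with an unadjusted p under 0.05. Of 28 chemoattractant receptor genes CCR3, given above, and GPR183, an oxysterol receptor that positions B cells (0.16 ± 0.07), were the ones with an unadjusted p under 0.05. Over all genes 3.8% were higher and 3.94% lower at that p. No more than 2 genes of any of these lists reached that p in a direction. Such counts are too few to set against those shares and are not read as results about the lists.

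Splicing genes at an unadjusted p under 0.05 were all lower. Of 35 SR protein and nuclear speckle genes, 8 were lower at an unadjusted p under 0.05 and none was higher, beside 3.94% of all genes in that direction, and 28 had log2 fold changes below 0 (median -0.09). PNISR, an arginine and serine rich speckle protein, had -0.20 ± 0.06 (SE). LUC7L3, a U1 snRNP associated splicing factor, was at 222, 305 and 414 CPM in AI and at 190, 243 and 277 CPM in IVP-LOS heifers, with overlapping groups (-0.32 ± 0.10, SE), and its paralogue LUC7L had a log2 fold change of -0.35 ± 0.13. On D105 the list median was 0.14, and LUC7L3 was at 0.67 ± 0.28, in the opposite direction. The highest D105 levels in IVP-LOS heifers were those of heifer 604 for LUC7L3 (818 CPM) and LUC7L (310.5 CPM) and of heifer 664 for PNISR (579.6 CPM). D105 medians of LUC7L3 were 230 CPM in AI and 303 CPM in IVP-LOS heifers. The number lower on D55 ranged from 5 without AI heifer 648 to 14 without AI heifer 609. AI heifer 606 had the highest level of LUC7L3 in its group.

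Respiratory chain, chaperone and ribosomal genes differed by small amounts in both directions. Of 77 nuclear-encoded respiratory chain genes, 8 were higher (beside 3.8% of all genes) and 2 lower at an unadjusted p under 0.05, while the list median was 0.00. NDUFB2, a complex I subunit, was at 22.4, 28.5 and 33.3 CPM in AI and at 31.5, 33.4 and 36.7 CPM in IVP-LOS heifers (log2 fold change 0.24 ± 0.07, SE). NDUFA10, another complex I subunit, had -0.25 ± 0.08, CYC1, the cytochrome c1 of complex III, had -0.18 ± 0.08, and ATP5F1C, the gamma subunit of ATP synthase, had 0.13 ± 0.05. Without AI heifer 647 the number higher was 3, and without the IVP-LOS heifers 656 and 664 it was 1, with 6 lower. Of 35 chaperone genes 4 were higher (beside 3.8% of all genes) and 1 lower, and the number higher was 2 without AI heifer 647. HSF2, a heat shock transcription factor, and the mitochondrial chaperones HSPA9 and HSPD1 were higher at an unadjusted p under 0.05, with log2 fold changes of 0.24 ± 0.07, 0.19 ± 0.07 and 0.17 ± 0.08. DNAJA2, a cytosolic co-chaperone, had 0.14 ± 0.06, and the small heat shock protein gene HSPB1 had -0.29 ± 0.10. Of 80 cytosolic ribosomal genes 3 were higher (RPL4, RPL26 and RACK1, between 0.21 and 0.25) and 2 lower (RPS28 at -0.30 and RPLP2 at -0.27), shares at or under those of all genes (3.8% and 3.94%). The number higher ranged from 1 (without AI heifer 546) to 5 (without AI heifer 517), and the number lower from 0 (without AI heifer 647) to 12 (without AI heifer 546).

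Chromatin and imprinted genes were examined because LOS is an epigenetic disorder of the fetus. Of 46 histone lysine methylation genes, 4 were higher at an unadjusted p under 0.05 and none was lower, beside 3.8% and 3.94% of all genes, with a list median of -0.01. The number higher ranged from 2 (without AI heifer 647) to 7 (without IVP-LOS heifer 602), and 3 were lower without IVP-LOS heifer 616. KMT2E, a SET and PHD domain protein, had 0.18 ± 0.06 (SE), JMJD1C, a jumonji domain protein, had 0.20 ± 0.07, KDM1A, the LSD1 demethylase, had 0.16 ± 0.07, and SUZ12, a core subunit of Polycomb complex 2, had 0.10 ± 0.04. Among 21 DNA methylation genes MBD6, a methyl-CpG binding domain family gene, had -0.17 ± 0.06. No DNA methyltransferase or TET gene reached an unadjusted p under 0.05. Among 23 imprinted genes tested, COPG2, a coatomer subunit next to MEST, was at 36.6, 41.2 and 45.8 CPM in AI and at 43.3, 46.8 and 54.7 CPM in IVP-LOS heifers (0.21 ± 0.06, SE). PLAGL1, a zinc finger transcription factor of the imprinted gene network, had 0.22 ± 0.10. Of 48 cell cycle genes 38 had log2 fold changes above 0 (median 0.09), and the one with an unadjusted p under 0.05, the mitotic kinase PLK1, had -0.25 ± 0.09.

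**Figure D5:**
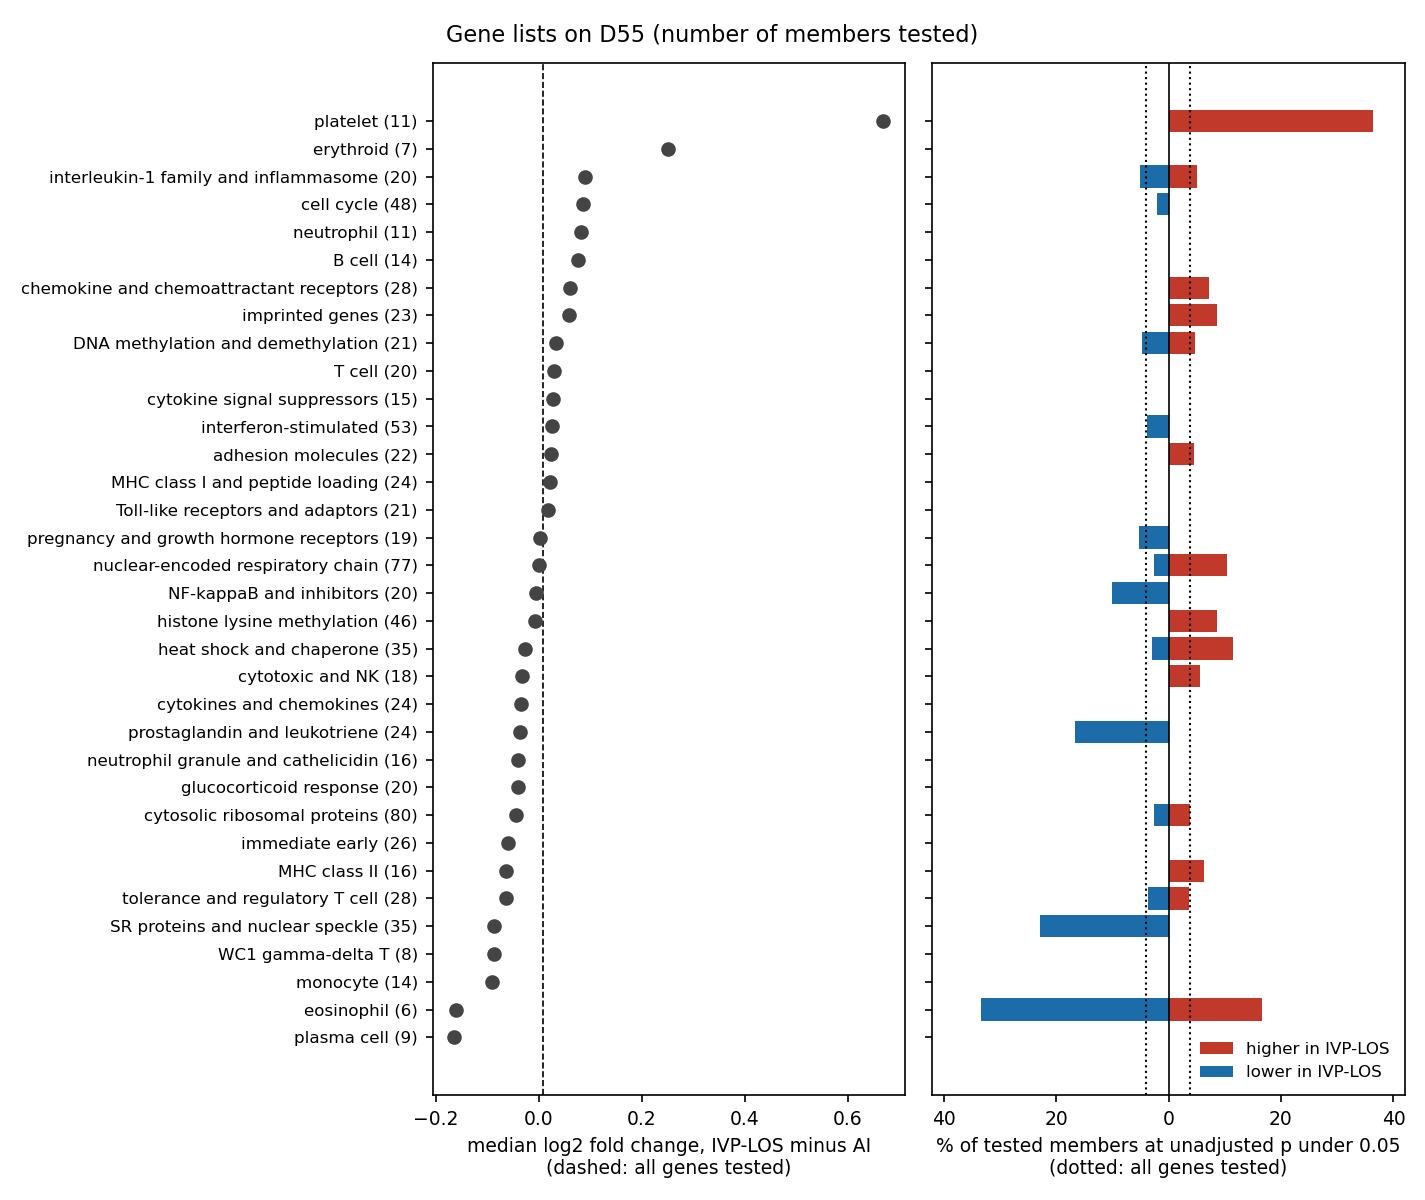
Gene lists with at least 5 members tested on D55, the number tested in parentheses. The left panel gives the median log2 fold change, IVP-LOS minus AI (dashed line, all genes, 0.009), and the right panel the percentage of members at an unadjusted p under 0.05 in each direction (dotted lines, all genes, 3.8% higher and 3.94% lower). The platelet list, at 0.67, is apart from the other lists, whose medians lie between -0.16 and 0.25.

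Whether these differences belonged to D55 was tested over the 34 libraries of both groups and days. The edgeR quasi-likelihood test of the interaction of group and day called none of 16018 genes (0%; 795 at an unadjusted p under 0.05). DESeq2 called none either (1046 at an unadjusted p under 0.05). With heifer as a block none was called (0%; 1674 at an unadjusted p under 0.05), and without heifer 517 none was called with or without the block. Within D105, none of 15283 genes was called (0%; 880 at an unadjusted p under 0.05). The D105 libraries of IVP-LOS heifers 604 and 664 had 32.4% and 30.4% of reads on no NCBI gene. The D105 group medians of that share were 24.1% in IVP-LOS and 23.2% in AI heifers. No D105 fit left heifers 604 and 664 out. For ERBB3 the D55 log2 fold change of 0.84 stood beside -0.07 ± 0.22 (SE) on D105, and the interaction had an FDR of 0.909 by edgeR without the block and 0.474 with it. For LOC100849069 the interaction FDR was 0.952 by edgeR. In both groups the D55 libraries came from 1 library set and the D105 libraries from another, so that day and set cannot be told apart in them. The IVP-Normal D105 libraries were of the same set as the D55 libraries.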

How the data were processed

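The authors mapped reads to the bovine genome ARS-UCD1.2 with HISAT2 2.1.0 and deposited raw read counts per gene made with HTSeq against NCBI and Ensembl annotations, and all counts used here are those deposited values. Whether the counting used strand is not given in the sources used here. Lines for reads on no gene were kept out of library sizes. The D55 libraries of AI and IVP-LOS heifers were fitted with edgeR 4.0.16 (R 4.3.3): TMM scaling, filterByExpr with a minimum count of 10, quasi-likelihood test, Benjamini-Hochberg FDR of 0.05 or less. DESeq2 1.42.0 and edgeR's likelihood ratio test, as the authors used, were alternatives, among others given in the closing section. Printed CPM share 1 TMM scale over all 46 libraries, and log2 fold changes are IVP-LOS minus AI. The edgeR and DESeq2 fits of AI against IVP-LOS heifers were tested on counts simulated with known changes. The permutation calculation was tested on made-up groups that do not overlap. The other steps were not tested in this way.

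Gene lists, members and the rule for named genes were chosen with earlier results of these data known. The rule took genes called by both tools, the 8 smallest p values in each direction (symbols not starting with LOC, at least 1 CPM), the 3 smallest in each list and genes whose groups do not overlap. Where 4 or 5 members of a list had an unadjusted p under 0.05, the remaining ones were named after their values were seen, as was CYC1. Some genes the rule names are not reported here. Symbols were matched to the RefSeq table of ARS-UCD2.0 (13836 of 15236 tested genes), used only for neighbours and gene type. Heifers are separate animals. The heifer number pairs D55 and D105 libraries of 1 animal: deviations from the group means correlated with r between 0.297 and 0.740 over 17 pairs, 16 of which were the best match of the D55 library. Depth, 21791213 to 24502012 reads on NCBI genes per library, limits precision for genes of a few CPM.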

Additional observations from a re-analysis of the deposited data

Results flagged for a closer look

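Among 156 group values examined for a lone extreme heifer (78 quantities, 2 groups, log2(CPM + 0.1)), 11 had a gap to the nearest heifer above Dixon's 95% critical value, and chance gives about 1 in 20. In AI heifers, heifer 606 stood apart with low BOLA-DQA5 (0.0427 CPM), low NDUFB2 (22.4 CPM) and high RPLP2 (942 CPM), heifer 533 with high RNF8 (41.5 CPM), heifer 546 with high GP5 (1.81 CPM) and heifer 648 with low CCR3 (9.05 CPM). In IVP-LOS heifers, heifer 664 stood apart with low HOXB3 (0.507 CPM) and low IRF7 (34.9 CPM), heifer 637 with low PNISR (236 CPM), heifer 663 with low TNF (10.3 CPM) and heifer 616 with low HBB (19.4 CPM).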

How the results depend on the processing

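The count of genes called at an FDR of 0.05 or less, 0 by edgeR's quasi-likelihood test, was 1 with edgeR's likelihood ratio test (1 also without heifer 517), 2 with DESeq2 (5 without heifer 517, 1 higher and 4 lower), 1 by both tools together, 2 with upper-quartile scaling, no filter and the likelihood ratio test together, and 162 (50 of them higher) with 2 factors of unwanted variation estimated from the residuals, with which 2339 genes had an unadjusted p under 0.05. With 1 such factor, other scalings or filters, all 23 D55 libraries, the Ensembl counts or any of 3 pairs of IVP-LOS heifers left out (those with 2 fetuses, those with the largest fetuses, and heifers 656 and 664) it was 0. Leaving out each heifer in turn gave 0 to 1 called genes and 693 (without AI heifer 606) to 1486 genes at an unadjusted p under 0.05. The share of reads on no gene differed by 0.588 percentage points in the opposite direction with Ensembl genes (exact permutation p = 0.389), and by -0.926 to -0.241 when heifers were left out. The causes were not tested. All 76 single genes followed kept their direction in all 2268 alternative values, of which 22 newly passed the threshold. Most of these genes were named for a small p in the same libraries. The alternatives refitted counts of the same heifers, with some left out or added. A kept direction was thus largely fixed in advance and is no separate support. With heifer as a replicate block, the paired test of the interaction of group and day called 0 genes, as without the block. Alternatives on heifer 517 were chosen after seeing the data. Low reads limit LOC100849069, with 0 to 6 reads in IVP-LOS libraries.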
